A study of Mus musculus with 8 samples.

Results

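The stefin A cluster is a run of closely related genes on mouse chromosome 16 that encode small inhibitors of cysteine proteases. Its 6 members described here are Stfa1, Stfa2, Stfa2l1, Stfa3, BC100530 and Gm5483, out of 42649 genes in the deposited table. They were taken by a fixed list of names. Stfa1, Stfa2, Stfa2l1 and Stfa3 were found by name, and the other 2 by Ensembl identifier: BC100530 is listed as Cstdc5 (ENSMUSG00000071561) and Gm5483 as Cstdc4 (ENSMUSG00000079597), the names used below. The list was proposed from the difference between the diets in these same libraries, so every difference between the diets in a member is a description, and no test of it is reported.

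RNA was sequenced from macrophages of MC38 liver metastases in C57BL/6 mice, where MC38 is a mouse colon carcinoma line. In the control diet group (CD, 4 mice) fat supplied 10% of the energy and in the high-fat diet group (HFD, 4 mice) 60%. Both groups ate their diet for 6 weeks, then received MC38 cells by injection into the spleen, and metastases were taken 19 days later. The cells were sorted as positive for CD45, CD11b and F4/80, and 1 library was made per mouse. Mice of both groups carried the same tumour line, and the sources used here give no age or sex and no mice without tumours.

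Stefins, also called type 1 cystatins, are single-domain proteins that stay in the cytosol and block the papain family of cysteine proteases, which includes the lysosomal cathepsins. They sit in the active-site cleft of the protease with a wedge made of the N-terminus and hairpin loops, the first of which carries the motif Gln-X-Val-X-Gly. Humans have the gene CSTA, whereas in the mouse the locus has expanded into a series of copies. In mouse blood and bone marrow, transcripts of this cluster are known chiefly from neutrophils and their precursors.

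The cluster spanned 298582 bases, from 36156811 to 36455392 of chromosome 16 on build GRCm38 (GENCODE M21), in which start and end of 6 of 6 members were the same as in the deposited table. On the plus strand lay Stfa2l1 (ENSMUSG00000059657, 36156811 to 36161953), Cstdc4 (36184212 to 36188111) and Stfa1 (ENSMUSG00000071562, 36276951 to 36285373). On the minus strand lay Cstdc5 (36359382 to 36367748), Stfa2 (ENSMUSG00000022902, 36403992 to 36408457) and Stfa3 (ENSMUSG00000054905, 36450537 to 36455392). The table held 13 further genes inside that span, among them the stefin genes Csta2 and Csta3.

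The coding sequence around the first hairpin loop shows how alike the members are, and it is printed because members with nearly the same sequence differed in their values below. Each line is 45 bases of the GENCODE M21 coding sequence, with the codons of the Gln-X-Val-X-Gly motif in capitals (codons 52 to 56 in Stfa2l1, Stfa2 and Stfa3, and 46 to 50 in the other members).
Stfa2l1: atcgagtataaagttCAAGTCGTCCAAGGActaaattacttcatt
Stfa2: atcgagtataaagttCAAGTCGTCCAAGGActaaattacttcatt
Cstdc4: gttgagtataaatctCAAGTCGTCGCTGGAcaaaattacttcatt
Stfa1: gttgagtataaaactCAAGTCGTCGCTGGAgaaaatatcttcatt
Cstdc5: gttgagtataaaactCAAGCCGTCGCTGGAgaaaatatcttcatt
Stfa3: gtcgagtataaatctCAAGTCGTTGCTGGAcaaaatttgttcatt

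In this window Stfa2l1 and Stfa2 differed at 0 bases and Stfa1 and Cstdc5 at 1, whereas Stfa2l1 and Cstdc5 differed at 12. Over the whole coding sequence, identity between pairs of members ran from 73.4% to 98.0% with a median of 79.5% (15 pairs). The closest pairs were Stfa1 with Cstdc5 at 98.0% and Stfa2l1 with Stfa2 at 96.5%. Outside the list, Cstdc4 was 96.9% identical to Csta2. Coding sequences were 312 bases long in Stfa2l1, Stfa2 and Stfa3 and 294 bases in Cstdc4, Stfa1 and Cstdc5.

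This likeness bears on how reads could be assigned, since how reads with several possible origins were counted is not given in the sources used here. Of all 50-base windows in the transcript, 35.6% in Cstdc4, 33.5% in Cstdc5, 26.9% in Stfa1, 16.8% in Stfa2l1 and 14.9% in Stfa2 also occurred in another stefin gene, and 0% in Stfa3. With windows of 150 bases the share was 0% in all 6 members. The counts of the members other than Stfa3 are therefore uncertain to the extent that short reads were split between copies. Only exact matches were searched, in the other members and in Csta1, Csta2, Csta3, Cstdc3, BC117090 and Cstb. The pseudogenes Gm6815, Gm7260 and Gm10913 inside the span were not searched.

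Library totals ran from 37180157 to 55717378 counts. Among them CD replicates 3 and 4 were set apart by the number of genes detected, with counts in 34495 and 33449 genes against 21571 to 24556. Their summed level of 20 mature neutrophil markers was 112896 and 114710 CPM (counts relative to the library size after TMM scaling, the unit of all levels below unless FPKM is named), against 2170 and 1818 in CD replicates 1 and 2. In HFD the same sum ran from 549 to 7682. The 10 macrophage markers were detected in every library and their sum was 13179 to 15149 CPM in CD replicates 1 and 2, was 3246 to 3438 in the other CD replicates and spread from 6595 to 41592 over HFD. The TMM scaling factors ran from 0.69 to 2.02, with the highest in HFD replicate 1. The members' values are given below with and without these 2 libraries, and other named genes that were much higher or lower in them are also given from CD replicates 1 and 2 alone.

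Across the cluster, the counts fell into 2 patterns. Stfa2l1, Cstdc4, Stfa1 and Stfa2 were high in CD replicates 3 and 4 and low in the other 6 libraries, CD replicates 1 and 2 included. Cstdc5 and Stfa3 were higher in each of the 4 CD libraries than in any HFD library, which among all 17367 tested genes was the case for 4.80%. These patterns were part of what the members were chosen by. Of the 6 members, 5 passed the filter on low counts and Stfa2 did not. All 5 had a lower fitted level in HFD, as did 49.2% of all tested genes, and their median log2 fold change (HFD minus CD) was -4.72 against 0.01 over all tested genes. Without CD replicates 3 and 4, 2 of the 5 were lower and the median was 0.25. With DESeq2 size factors or library size as the only scaling, and all 8 libraries, all 5 were lower. Over all tested genes, edgeR's quasi-likelihood test called 0.00576% lower in HFD at an adjusted p under 0.05, which is 1 gene, Ass1, and 0.00% higher. These counts of called genes differed widely between settings, as listed at the end. In bulk libraries, fewer cells of a type and less RNA per cell cannot be told apart.

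**Figure D1:**
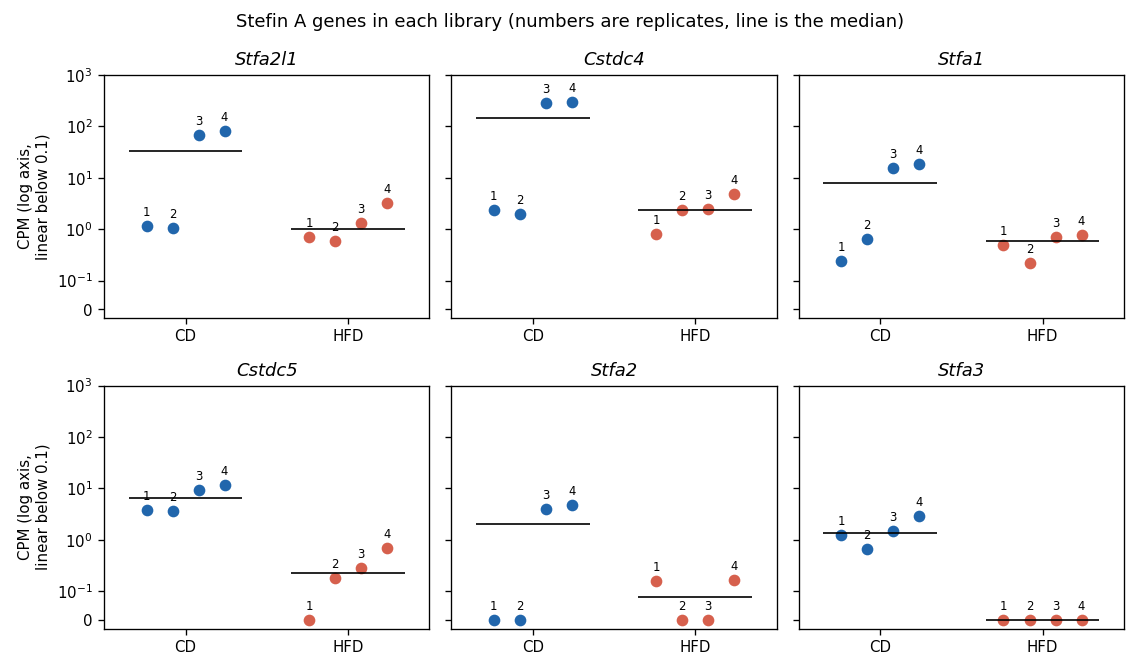
Level of each stefin A member in the 8 libraries (y axis, TMM-scaled CPM, linear near 0 and logarithmic above; x axis, diet). Each point is the library of 1 mouse marked with its replicate number, and the line is the median of the diet; CD replicates 3 and 4 lie far above all others for Stfa2l1, Cstdc4, Stfa1 and Stfa2, whereas for Cstdc5 and Stfa3 all 4 CD points lie above all 4 HFD points.

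Cstdc4 was the most abundant member by counts. Its level was 2.35, 1.98, 281 and 292 CPM in CD replicates 1 to 4 and 0.790, 2.38, 2.42 and 4.85 CPM in HFD replicates 1 to 4. The 2 high CD libraries thus carried a mean 133 times that of the other 2, and the latter lay inside the range of the HFD libraries. The diet means were 144 ± 164 CPM in CD and 2.61 ± 1.67 CPM in HFD (SD, n = 4 each), with a log2 fold change of -5.80 ± 1.57 (SE). Without CD replicates 3 and 4 that change was 0.25, so its direction turned.

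Stfa2l1 showed the same split. It was at 1.16, 1.07, 66.3 and 79.6 CPM in CD replicates 1 to 4 and at 0.696, 0.595, 1.31 and 3.27 CPM in HFD replicates 1 to 4. CD replicates 3 and 4 were again the high libraries, 65.7 times the other CD libraries on average, and the diets overlapped through CD replicates 1 and 2. The diet means were 37.0 ± 41.8 CPM in CD and 1.47 ± 1.24 CPM in HFD (SD, n = 4 each) and the log2 fold change was -4.68 ± 1.37 (SE). Without CD replicates 3 and 4 it was 0.37.

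Stfa1 had levels of 0.238, 0.636, 15.5 and 18.3 CPM in CD replicates 1 to 4. The HFD replicates 1 to 4 had 0.485, 0.223, 0.712 and 0.776 CPM. Again 2 of the 4 CD libraries were high, by a ratio of means of 38.6, and CD replicate 1 was lower than 3 of the 4 HFD libraries. The log2 fold change was -3.99 ± 1.19 (SE) with all 8 libraries and 0.31 without CD replicates 3 and 4.

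Stfa2 was nearly undetected outside CD replicates 3 and 4. It had 0, 0, 123 and 132 counts in CD replicates 1 to 4 and 15, 0, 0 and 6 counts in HFD replicates 1 to 4. The 2 CD libraries with counts were at 4.08 and 4.80 CPM, and the 2 HFD libraries with counts at 0.158 and 0.166 CPM. Its coding sequence is nearly that of Stfa2l1, which had 63 and 62 counts in the 2 CD libraries where Stfa2 had 0.

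Cstdc5 was one of the members whose gap between the diets did not rest on CD replicates 3 and 4. It had 212, 210, 282 and 327 counts in CD replicates 1 to 4 and 0, 12, 12 and 25 counts in HFD replicates 1 to 4. These correspond to 3.89, 3.61, 9.36 and 11.9 CPM in CD and to 0, 0.179, 0.285 and 0.693 CPM in HFD, so that the lowest CD library was above the highest HFD library. The means were 7.19 ± 4.11 CPM in CD and 0.289 ± 0.294 CPM in HFD (SD, n = 4 each), with a log2 fold change of -4.72 ± 0.98 (SE). Without CD replicates 3 and 4 the change was -3.78, and CD replicates 1 and 2 alone had a mean 12.97 times that of the HFD libraries. Between the CD libraries themselves Cstdc5 was 2.84 times higher in replicates 3 and 4 than in 1 and 2, against the ratio of 38.6 for Stfa1, its near-identical copy.

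Stfa3 was not counted in any HFD library. It had 68, 38, 45 and 79 counts in CD replicates 1 to 4, or 1.25, 0.653, 1.49 and 2.87 CPM, and 0 counts in each of the 4 HFD replicates. All 4 CD libraries therefore lay above all HFD libraries, at a low level. Taking 3 counts over the HFD group as the limit that a count of 0 allows, Stfa3 was at least 108-fold lower in HFD (230 counts in the CD group). Against CD replicates 1 and 2 alone, with 106 counts, it was at least 75.3-fold lower. These bounds cover counting error only. Stfa3 shared no 50-base window with the stefin genes searched. By this measure its counts were the least open to reads from other copies.

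**Figure D2:**
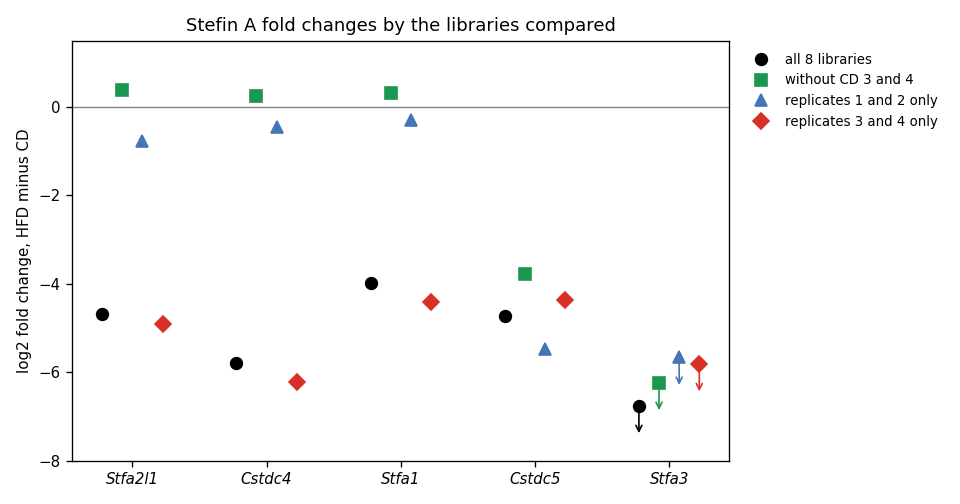
Log2 fold change (HFD minus CD, y axis) of the 5 members that passed the filter on low counts (x axis) with all 8 libraries, without CD replicates 3 and 4, within replicates 1 and 2 and within replicates 3 and 4. Arrows mark Stfa3, for which the 0 counts in HFD give bounds; Stfa1, Stfa2l1 and Cstdc4 move to 0.31, 0.37 and 0.25 without CD replicates 3 and 4, whereas Cstdc5 stays at -3.78.

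The libraries were also compared within replicate numbers, as replicates 1 and 2 of both diets on one side and replicates 3 and 4 on the other, with 2 libraries per diet in each. Within replicates 3 and 4 the log2 fold changes were -4.41 for Stfa1, -4.92 for Stfa2l1, -6.22 for Cstdc4 and -4.37 for Cstdc5. Within replicates 1 and 2 they were -0.29, -0.77 and -0.45 for the first 3 and -5.49 for Cstdc5. The gap in Cstdc5 was thus present on both sides, and that of the other 3 was large on one side alone. Stfa3 was at least 50.8-fold lower in HFD within replicates 1 and 2 and at least 56.1-fold lower within replicates 3 and 4.

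The make-up of the cluster differed between libraries as well as its level. The 6 members summed to 484, 462, 11379 and 11266 counts in CD replicates 1 to 4 and to 202, 227, 199 and 352 counts in HFD replicates 1 to 4. Cstdc5 supplied 43.8% and 45.5% of these counts in CD replicates 1 and 2, but 2.48% and 2.90% in CD replicates 3 and 4. In the HFD replicates it supplied 0%, 5.29%, 6.03% and 7.10%. Cstdc5 thus led the cluster in CD replicates 1 and 2 and in no other library.

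Cstdc4 led elsewhere. It held 26.4%, 24.9%, 74.4% and 71.3% of the summed counts in CD replicates 1 to 4 and 37.1%, 70.5%, 51.3% and 49.7% in HFD replicates 1 to 4. Stfa2l1 varied less, between 13.02% and 33.5% over the 8 libraries. Stfa3 made up 14.0% and 8.23% in CD replicates 1 and 2 and 0.395% and 0.701% in CD replicates 3 and 4.

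**Figure D3:**
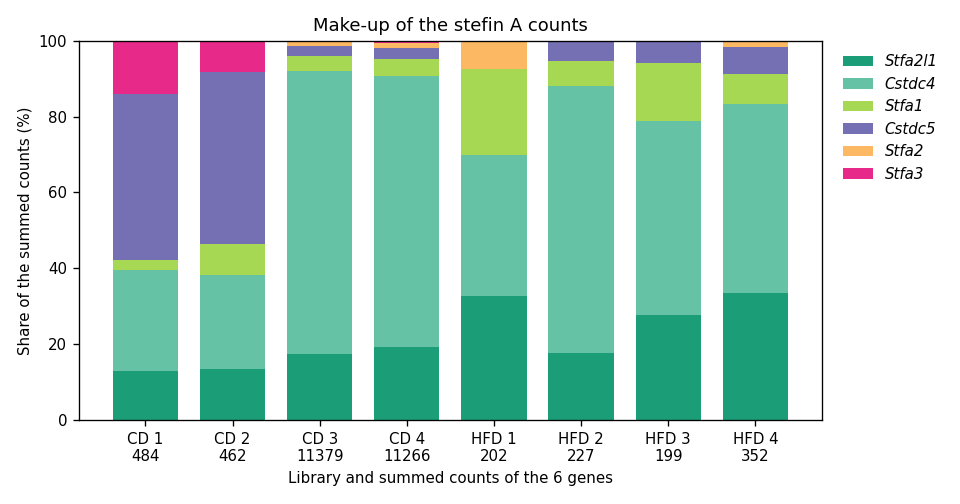
Share of each member in the summed counts of all 6 members (y axis, percent) in each of the 8 libraries (x axis, diet and replicate number). Cstdc5 takes 43.8% and 45.5% in CD replicates 1 and 2 and at most 7.10% in the other 6 libraries, where Cstdc4 is the largest share.

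Counts do not compare genes of different length, so levels were also ranked by FPKM, the deposited fragments per kilobase of transcript, scaled to library depth. In CD replicates 3 and 4, Stfa2l1 was the highest member at 97.8 and 123 FPKM, followed by Cstdc4 at 93.4 and 102 FPKM, and the 2 genes did not differ beyond their spread. Stfa1 followed at 13.5 and 16.7 FPKM and Cstdc5 at 7.29 and 9.72 FPKM, then Stfa2 at 5.36 and 6.60 and Stfa3 at 2.23 and 4.49 FPKM. In CD replicates 1 and 2 the order was different, with Cstdc5 at 4.34 and 4.26 FPKM, Stfa2l1 at 2.42 and 2.36, Stfa3 at 2.68 and 1.48, Cstdc4 at 1.11 and 0.980 and Stfa1 at 0.293 and 0.823. There the ranges of Stfa2l1 and Stfa3 overlapped, and those of the other neighbours in this order did not. In HFD, Stfa2l1 was highest in all 4 libraries, at 2.87, 1.42, 2.48 and 4.86 FPKM. The FPKM of Cstdc4 depends on a length that was 4.45 times that of Stfa2l1 as implied by counts and FPKM: its annotation holds a retained-intron transcript of 1859 bases beside a coding transcript of 414, and Stfa2l1 a transcript of 419 bases.

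The profiles over the 8 libraries grouped the members in the same way. The root mean square difference between centred log2 profiles was 0.65 for Stfa2l1 with Cstdc4, 0.66 for Stfa2l1 with Stfa1 and 1.16 for Stfa1 with Cstdc4. It was 0.84 for Stfa3 with Cstdc5. Between these groups it was larger, from 1.75 for Stfa3 with Stfa1 to 2.20 for Stfa3 with Cstdc4. Stfa1 and Cstdc5, the pair with the most similar coding sequence, were 1.83 apart. By position the tested members did separate: Stfa2l1, Cstdc4 and Stfa1 lie on the plus strand at lower coordinates, and Cstdc5 and Stfa3 on the minus strand at higher ones. Stfa2 broke that order, since it had the first pattern and lies on the minus strand between Cstdc5 and Stfa3. It did not pass the filter on low counts.

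**Figure D4:**
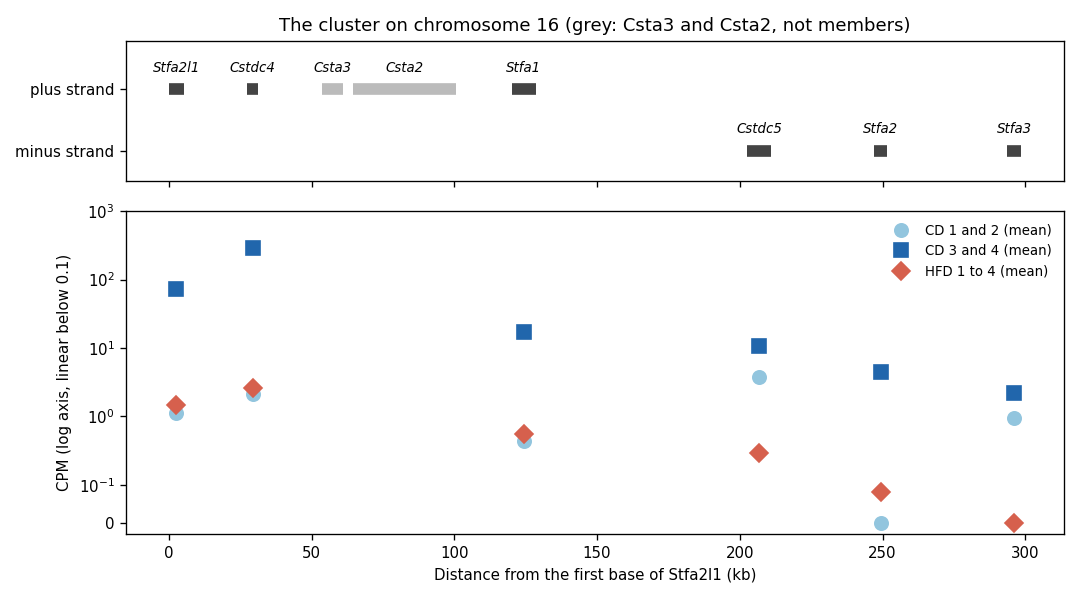
Positions of the members along the cluster (x axis, kilobases from the start of Stfa2l1; 1 row per strand) above their mean level in CD replicates 1 and 2, in CD replicates 3 and 4 and in the 4 HFD libraries (y axis, TMM-scaled CPM, linear near 0 and logarithmic above). Csta3 and Csta2, which lie in the cluster and are no members of the list, are in grey; the members with the highest level in CD replicates 3 and 4, Stfa2l1 and Cstdc4, are neighbours.

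Other stefin genes gave a mixed picture. Of 8 in the table, 2 passed the filter and 0 were called. Cstb, the stefin B gene found in most cell types, was the most abundant stefin by far, at 1071 to 1449 FPKM in CD and 466 to 1211 FPKM in HFD. Its level was 973 ± 106 CPM in CD and 495 ± 251 CPM in HFD (SD, n = 4 each), lower in each of 4 HFD libraries than in any CD library, and its log2 fold change of -0.97 ± 0.47 (SE) did not pass (edgeR adjusted p = 0.411). Csta2, in the cluster between Cstdc4 and Stfa1, had 136, 146, 443 and 339 counts in CD replicates 1 to 4 and 491, 117, 21 and 37 counts in HFD replicates 1 to 4. It was at 8.01 ± 6.43 CPM in CD and 2.11 ± 2.11 CPM in HFD, and its log2 fold change of -1.90 ± 0.80 (SE) did not pass (edgeR adjusted p = 0.360). CD replicates 1 and 2 alone had a mean of 2.50 CPM, 1.19 times that of HFD. Csta3 repeated the first pattern, with 6, 0, 227 and 168 counts in CD and 4, 0, 8 and 0 in HFD.

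The genes that flank the cluster were also read. Ccdc58, 64691 bases below it, was at 7.60 ± 1.82 CPM in CD and 10.8 ± 2.66 CPM in HFD (log2 fold change 0.50, edgeR adjusted p = 0.460). Casr, the calcium-sensing receptor gene 38304 bases above it, was at 0.604 ± 0.395 and 0.184 ± 0.322 CPM (-1.76, edgeR adjusted p = 0.611). Neither passed the test. The antisense gene Gm15845 overlaps Cstdc5 and had at most 7 counts in a library, and the library protocol marks no strand, so reads of the 2 genes cannot be told apart where they overlap.

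The proteases that stefins bind were looked at in the same libraries. All 10 cysteine cathepsins passed the filter, 0 were called, and 8 of them had a positive log2 fold change, with a median of 0.75 against 0.01 over all tested genes. Ctsf, cathepsin F, was at 0.613 ± 0.249 CPM in CD and 2.45 ± 0.771 CPM in HFD (SD, n = 4 each), with all 4 HFD libraries above all CD libraries as for 3.57% of tested genes. Its log2 fold change was 2.01 ± 0.43 (SE; edgeR adjusted p = 0.219). It was the only cathepsin with an unadjusted p under 0.05 for a higher level in HFD, as 5.31% of tested genes had. Ctsf was called higher with DESeq2 (adjusted p = 0.0023), as 0.823% of tested genes were. Within replicates 3 and 4 edgeR called 7 cathepsins higher, and 11.5% of all genes tested there. Ctso was at 9.38 ± 3.20 and 14.9 ± 6.02 CPM (0.67, adjusted p = 0.443) and Ctsh, an aminopeptidase of lysosomes, at 366 ± 145 and 658 ± 436 CPM (0.85, adjusted p = 0.504). The abundant Ctsb and Ctss were at 3503 ± 356 and 5620 ± 774 CPM in CD and at 6282 ± 3825 and 9354 ± 8100 CPM in HFD, where the spread between mice exceeded the difference of the means.

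Secreted cystatins, the extracellular relatives of stefins, had 8 tested genes and 0 called, with a median log2 fold change of -0.50. Kng1, a kininogen with cystatin domains that is made in the liver, was at 4.45 ± 0.883 CPM in CD and 1.99 ± 0.559 CPM in HFD (-1.16, edgeR adjusted p = 0.250). It was lower in each HFD library than in any CD library, as were 4.80% of tested genes. Kng2 was at 0.868 ± 0.504 and 0.205 ± 0.245 CPM and Cst6 at 18.5 ± 18.7 and 53.1 ± 26.1 CPM, with edgeR adjusted p of 0.449 and 0.467. Cst6 was low in CD replicates 3 and 4, with a mean of 2.40 CPM, and at 34.6 CPM on average in CD replicates 1 and 2. Of 9 other protease inhibitors known from neutrophils and macrophages, 0 were called and the median was -0.96. Slpi, an inhibitor of neutrophil elastase, was at 11109 ± 11633 CPM in CD and 505 ± 347 CPM in HFD (-4.46, edgeR adjusted p = 0.259). Most of that difference was carried by CD replicates 3 and 4, with a mean of 21144 CPM. CD replicates 1 and 2 had a mean of 1074 CPM, 2.13 times that of HFD. Slpi was still lower in each HFD library, at most 819 CPM, than in any CD library, at least 996 CPM. This held for 4.80% of tested genes. Serpinb6a went the other way, at 21.9 ± 9.49 and 55.9 ± 5.36 CPM with all HFD libraries above all CD libraries (1.35, edgeR adjusted p = 0.244). Serpinb2, which inhibits plasminogen activators, was at 31.9 ± 30.2 and 4.95 ± 2.85 CPM (-2.68, edgeR adjusted p = 0.264). Its mean in CD replicates 1 and 2 was 6.13 CPM, 1.24 times that of HFD.

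Markers of other cell types were read beside both patterns. The mean log2 level of the 20 mature neutrophil markers was 4.13 to 4.33 in CD replicates 1 and 2, 8.74 to 8.79 in CD replicates 3 and 4 and 3.57 to 5.21 in HFD, and none of the 20 was at 0 in any library. Of these markers, 18 had an unadjusted p under 0.05 for a lower level in HFD, as 7.56% of tested genes did, and 0 were called. Their median log2 fold change was -3.19, with G0s2, Mrgpra2a and Mrgpra2b at -4.49, -4.71 and -4.93 (edgeR adjusted p = 0.244, 0.244 and 0.245). In CD replicates 1 and 2 alone the means of these 3 genes were 1.503, 1.26 and 1.00 times those of HFD. Over all 20 markers this ratio ran from 0.230 for Retnlg to 1.503 for G0s2, so it lay on both sides of equality. Their part in the pattern of Stfa2l1, Cstdc4, Stfa1 and Stfa2 was not tested.

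Set against the neutrophil transcripts S100a8, S100a9 and Retnlg, which summed to 1459, 1195, 102860 and 104793 CPM in CD replicates 1 to 4 and 189, 1812, 3643 and 6614 CPM in HFD replicates 1 to 4, the members separated again. Stfa2l1 stood at 0.792, 0.891, 0.644 and 0.760 CPM per 1000 CPM of these transcripts in CD replicates 1 to 4. In HFD replicates 1 to 4 it stood at 3.68, 0.328, 0.358 and 0.494. The ratio thus lay between 0.644 and 0.891 in the 4 CD libraries, although the transcripts themselves differed widely between them. No HFD library lay in that range, with replicate 1 above it and replicates 2 to 4 below it. The evenness over CD depends on the transcripts chosen, whose sum was mostly S100a8. The CD replicate 3 and 4 mean was 71.0 times the CD replicate 1 and 2 mean for S100a8, 77.8 for S100a9 and 221 for Retnlg. It was 65.7 times for Stfa2l1, so the ratio would not be even against Retnlg alone. The CD ratios of the other members of this pattern were less even. Stfa1 stood at 0.163, 0.532, 0.150 and 0.175 in CD replicates 1 to 4, and HFD replicate 3, at 0.195, lay inside that range. Cstdc4 stood at 1.61, 1.65, 2.73 and 2.79 in CD and at 4.18, 1.31, 0.664 and 0.733 in HFD. Stfa2 stood at 0, 0, 0.0397 and 0.0458 in CD, a range that held HFD replicates 2 to 4. Cstdc5 stood at 2.67 and 3.02 in CD replicates 1 and 2, 0.0910 and 0.114 in CD replicates 3 and 4 and 0, 0.0985, 0.0782 and 0.105 in HFD replicates 1 to 4. Relative to these transcripts, CD replicates 1 and 2 were the libraries rich in Cstdc5.

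Some hepatocyte markers shared the non-overlap of Cstdc5 and Stfa3. All 8 had a negative log2 fold change and 0 were called. Of the 8, 5 were lower in every HFD library than in any CD library, against 4.80% of tested genes, and 5 had an unadjusted p under 0.05 for a lower level, against 7.56%. Alb, Ttr and Apoa2 overlapped between the diets. All 8 hepatocyte markers together summed to 71.7 to 75.7 CPM in CD replicates 1 and 2 and 108 to 116 CPM in CD replicates 3 and 4. In HFD their sum was 25.2 to 55.6 CPM, and none of the 8 was at 0 in any library. Hpx, the hemopexin gene, was at 16.1 ± 1.42 and 4.00 ± 0.914 CPM (-2.01, edgeR adjusted p = 0.0883), and the fibrinogen chains Fgb and Fgg had edgeR adjusted p of 0.128 and 0.172 and log2 fold changes of -2.57 and -2.44. Alb, the albumin gene, was at 6.75, 6.36, 20.7 and 20.1 CPM in CD replicates 1 to 4 and 3.85, 5.92, 13.1 and 18.0 CPM in HFD replicates 1 to 4, so it did not share the pattern of Cstdc5. The part of hepatocyte transcripts in the pattern of Cstdc5 and Stfa3 was not tested.

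Other marker lists had 0 called genes each. In T and NK cell markers, 3 of 7 tested genes (Cd3g, Cd3e and Gzmb) were lower in every HFD library than in any CD library, against 4.80% of all tested genes. So were 2 of 6 eosinophil, mast cell and basophil markers, 1 of 7 epithelial, 1 of 8 classical monocyte and 1 of 10 immature granule markers. Of the mature neutrophil and macrophage markers, 0 of 20 and 0 of 10 were. The T and NK cell list summed to 11.2 to 14.3 CPM in CD and 3.04 to 7.51 CPM in HFD. Epithelial markers summed to 11.1 to 21.2 CPM in CD and 5.65 to 8.09 CPM in HFD, and markers of eosinophils, mast cells and basophils to 5.33 to 8.99 and 2.02 to 4.95 CPM. For classical monocyte markers the sum was 1465 to 1641 CPM in CD replicates 1 and 2, 6124 to 6139 CPM in the other CD replicates and 492 to 1345 CPM in HFD. Markers of immature neutrophil granules summed to 392 to 523, 16050 to 19620 and 715 to 3819 CPM in the same order. That sum was mostly Chil3, at 18493 CPM in CD replicate 3, and 4 of the 10 tested genes of the list had a positive log2 fold change. The CD replicate 3 and 4 mean was 64.8 times the CD replicate 1 and 2 mean for Lcn2, 44.0 for Chil3 and 6.30 for Ngp. It was 4.57 times for Cebpe, 3.92 for Fcnb, 1.81 for Elane, 1.22 for Ltf, 1.17 for Prtn3 and 0.908 for Mpo. Camp was lower in CD replicates 3 and 4, at 4.65 and 5.02 CPM, than in CD replicates 1 and 2, at 12.7 and 14.4 CPM. The part of these lists in the members' values was not tested either.

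**Figure D5:**
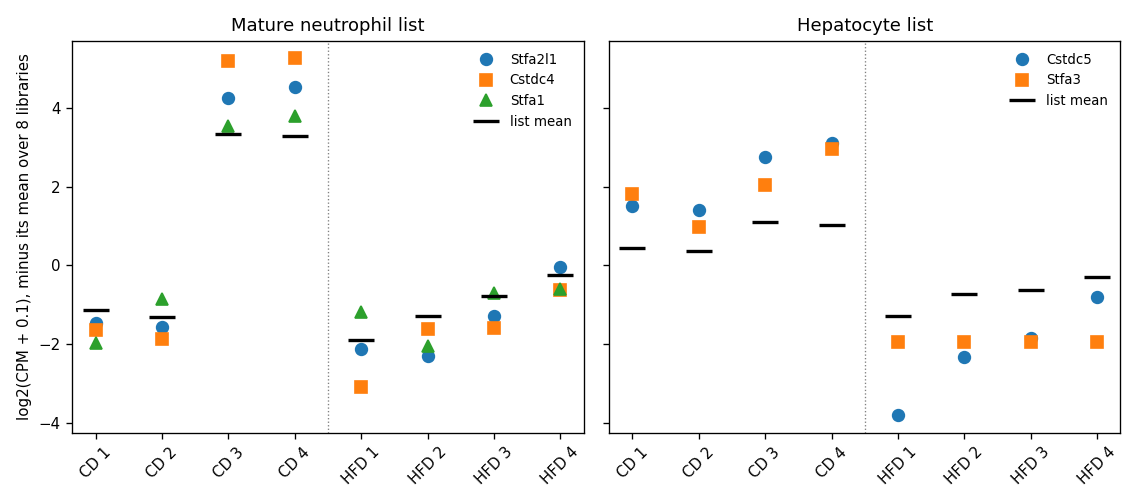
Profiles over the 8 libraries (x axis) as log2(CPM + 0.1) centred on each gene's own mean (y axis), with points for Stfa2l1, Cstdc4 and Stfa1 beside bars for the mean of the mature neutrophil markers (left) and Cstdc5 and Stfa3 beside the mean of the hepatocyte markers (right). The points on the left peak in CD replicates 3 and 4; those on the right lie higher in all 4 CD libraries than in the HFD libraries. The pairing of members with lists was chosen after the values were seen.

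The genes with the profile most like the mean of the 5 tested members, over the 8 libraries and among genes of at least 1 CPM on average, were G0s2, Ifit1bl1, Hcar2, Ntrk3 and Trim30b, with root mean square differences of 0.34, 0.42, 0.44, 0.47 and 0.49 on the log2 scale. G0s2 encodes an inhibitor of adipose triglyceride lipase and Hcar2 a receptor for niacin and ketone bodies. G0s2 was at 52.0, 41.2, 1324 and 1367 CPM in CD replicates 1 to 4 and 14.2, 26.1, 26.9 and 56.9 CPM in HFD replicates 1 to 4. The nearest genes to single members, chosen after the values were seen, were Mrgpra2b for Stfa2l1 (0.41), Saa3 for Cstdc4 (0.40), 4933432I03Rik for Stfa1 (0.30), Saa1 for Cstdc5 (0.68) and Mup20 for Stfa3 (0.75). Saa1 and Saa3 encode serum amyloid A proteins and Mup20 a major urinary protein.

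The upstream sequences were read because the members moved together in part. RefSeq (GRCm38.p6) gave a promoter for 6 of 6 members, and 3 of them had the same start site as GENCODE M21. The 120 bases before the start of these 3 follow, with matches to the motifs TTNNGNAA (C/EBP family) and GAGGAA (ETS family) on either strand in capitals.
Stfa2l1, chr16:36156691-36156810, plus strand: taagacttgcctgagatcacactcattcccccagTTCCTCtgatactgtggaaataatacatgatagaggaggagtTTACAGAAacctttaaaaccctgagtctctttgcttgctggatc
Cstdc4, chr16:36184092-36184211, plus strand: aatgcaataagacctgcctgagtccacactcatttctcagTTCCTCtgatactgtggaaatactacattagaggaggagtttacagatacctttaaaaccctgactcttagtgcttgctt
Stfa3, chr16:36455393-36455512, minus strand: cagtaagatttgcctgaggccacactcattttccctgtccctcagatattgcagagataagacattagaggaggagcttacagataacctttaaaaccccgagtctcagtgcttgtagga

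In the 250 bases before the RefSeq start, both strands searched, GAGGAA occurred in 6 of 6 members and in 23.3% of 32851 promoters, and TTNNGNAA in 5 of 6 members and in 36.8%. Stfa3 was the member without TTNNGNAA in that window, while Cstdc5, which shared its pattern, held it. In Stfa1, Cstdc5 and Stfa2 the RefSeq start lay 197, 178 and 94 bases inside the GENCODE gene. Their TTNNGNAA matches, at -109, -88 and -40 from that start, were thus inside the GENCODE gene. So were the GAGGAA matches of Stfa1 at -178 and Stfa2 at -82. TATAAA and the core of the interferon-stimulated response element occurred in 0 members, against 12.4% and 2.98% of all promoters. Identity between members over these RefSeq windows ran from 65.2% to 89.4%, highest for Stfa2l1 with Stfa2, and was 81.2% for Stfa1 with Cstdc5. A match of these letters is a description of the sequence.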

How the data were processed

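The authors deposited 1 table of raw counts and of FPKM per gene for 8 libraries of polyA RNA (SMARTer full-length cDNA with PCR, per the labels' protocols). Tools named in the submitters' processing notes are StringTie 1.3.4d, HISAT2 2.0.4 and cutadapt 1.9. The sources used here give neither their parameters nor the genome build. Of 42649 identifiers, 42502 were found in GENCODE M21, 39410 with the same start and end. The members and gene lists were chosen with earlier results of these data known.

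Counts were tested with edgeR 4.0.16 in R 4.3.3 (filterByExpr, TMM scaling, two-sided quasi-likelihood test, diet as the only term, Benjamini-Hochberg adjustment over 17367 genes, threshold 0.05). Alternatives used DESeq2 1.42.0, limma 3.58.1 on log2(FPKM + 1) and log2(FPKM + 0.1), other scalings and subsets of libraries. The edgeR step was tested on simulated data. Mean ± SD is over 4 mice. The SE of a log2 fold change is from the edgeR fit. The bounds given for Stfa3 cover counting error only, and the protocol describes no molecular identifiers.

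Named genes were all members, list genes that were called or else the 3 with the smallest p, the 5 nearest profiles and the nearest tested gene on each side. Genes with the smallest p are not named for the macrophage, classical monocyte, epithelial and eosinophil, mast cell and basophil lists. Others are said to be chosen after the values were seen, and Ctsb, Ctss, Csta3, Alb, Ttr, Apoa2, Chil3 and Camp were too. S100a8, S100a9, Retnlg, Ngp, Fcnb, Elane, Ltf, Prtn3 and Mpo were also named outside that rule. Same-numbered replicates had r across genes of 0.11, 0.292, 0.22 and 0.183 for their deviations from the diet means. Each exceeded 0.1, so the replicate block was fitted as a pairing, but pairs of different numbers reached 0.318 (CD 1 with HFD 2) and 0.265 (CD 4 with HFD 3), so the numbers 1 and 2 against 3 and 4 were separated more than single numbers. With the replicate block the count of genes called lower was 0 in place of 1. Libraries of 1 diet differed beyond counting error (median chi-square per gene 3.77 to 119.52). The lowest values were 3.77 for CD 3 with CD 4 and 4.65 for CD 1 with CD 2. Between these pairs the values ran from 25.1 to 32.0. Whether libraries shared a preparation cannot be told from this check.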

Additional observations from a re-analysis of the deposited data

How the results depend on the processing

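Among the settings tried, Stfa1, Stfa2l1 and Cstdc4 turned direction without CD replicates 3 and 4 (log2 fold changes 0.31, 0.37 and 0.25) and were smaller within replicates 1 and 2 (-0.29, -0.77 and -0.45). With limma on log2(FPKM + 1) the changes were -1.54 for Stfa1, -2.73 for Cstdc4, -2.52 for Cstdc5 and -1.84 for Stfa3, and with log2(FPKM + 0.1) they were -1.96, -3.11, -4.42 and -4.71. Stfa2l1 was at -2.38 and -2.58 in these 2 fits.

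The count of genes called higher was 119 without a filter, 143 with DESeq2, 179 with a term for replicates 1 and 2 against 3 and 4 and 2314 within replicates 3 and 4, against 0; that of genes called lower was 296, 496, 177 and 3310, against 1. It was 0 with library size only, with limma on log2(FPKM + 1), with the replicate block, without CD replicates 3 and 4 and within replicates 1 and 2, and from 0 to 1 with each replicate left out in turn. At an unadjusted p under 0.05, edgeR gave 922 higher and 1313 lower genes. Library size only moved the median log2 fold change of all genes from 0.01 to 0.42. Of the cathepsins, 1 (Ctsf) was called without a filter, with DESeq2 and with that term, and 7 within replicates 3 and 4. The cause was not tested.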
